A study of Mus musculus with 9 samples.

Results

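The genes described here copy DNA or supply its building blocks. They were a list of 57 named genes, and each was taken from the array through the single transcript cluster (the probes grouped for 1 transcript) whose platform annotation gave that gene symbol alone. Of the 57 genes, 55 were measured in this way, among 30050 genes in all. The clusters that name Orc5 and Mcm7 also name other genes, so these were not analysed here.

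RNA came from cells described as HL-1, an immortalized mouse heart muscle cell line. They were kept in medium with 10% fetal bovine serum and treated at 80% confluence. The 3 groups of 3 arrays each were Con, given phosphate-buffered saline, DOX, given 0.3 µM doxorubicin, and DOX plus IFN-γ, given 0.3 µM doxorubicin with 20 ng/ml interferon gamma. Doxorubicin, a cancer drug of the anthracycline class, holds topoisomerase II on broken DNA, and interferon gamma is a cytokine released by immune cells. All groups are 1 cell line. No length of treatment is given in the sources used here, interferon gamma alone was not analysed here, and the labels do not say whether arrays of a group came from separate cultures, so the p-values rest on the spread between arrays alone, and that spread may be technical.

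Before a cell divides, the origin recognition complex marks start sites on DNA, Cdc6 and Cdt1 load the ring-shaped Mcm2-7 helicase there, and Cdc45 and the GINS complex switch it on. Polymerases then copy both strands behind the fork, held on by the sliding clamp, while ribonucleotide reductase and thymidylate synthase supply deoxynucleotides. In proliferating cells many of these genes are switched on together at the start of S phase by E2F transcription factors, and adult heart muscle cells have largely left the cycle, whereas an immortalized line keeps dividing.

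Stretches of promoter are shown for 4 of the genes that fell 2-fold or more with doxorubicin and for Tyms, the gene with the largest called rise, because the windows of these genes differ in the letters they hold. Each is the 250 bases before the RefSeq start of the gene in GRCm38.p6, read on the strand of the gene. Capitals mark the 8-letter E2F sequences TTTCCCGC, TTTGGCGC, TTTCGCGC and TTTGCCGC and the 5-letter CCAAT box, on either strand, so that 2 overlapping E2F matches form a single run. Mcm6 lies on chromosome 1 on the minus strand (chr1:128359706-128359955), Mcm5 on chromosome 8 on the plus strand (chr8:75109259-75109508), Pola1 on chromosome X on the minus strand (chrX:93632156-93632405), Rrm1 on chromosome 7 on the plus strand (chr7:102441445-102441694) and Tyms on chromosome 5 on the minus strand (chr5:30073626-30073875).
Mcm6: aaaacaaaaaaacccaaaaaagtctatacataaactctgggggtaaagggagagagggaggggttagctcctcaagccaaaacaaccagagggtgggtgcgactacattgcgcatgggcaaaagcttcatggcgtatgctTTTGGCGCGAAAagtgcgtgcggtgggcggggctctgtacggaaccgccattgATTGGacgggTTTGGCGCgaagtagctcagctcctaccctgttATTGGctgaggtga
Mcm5: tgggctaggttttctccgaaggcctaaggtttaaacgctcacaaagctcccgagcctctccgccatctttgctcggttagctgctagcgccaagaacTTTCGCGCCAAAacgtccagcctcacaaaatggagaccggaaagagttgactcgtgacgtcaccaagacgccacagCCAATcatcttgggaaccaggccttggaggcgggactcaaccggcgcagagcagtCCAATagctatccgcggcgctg
Pola1: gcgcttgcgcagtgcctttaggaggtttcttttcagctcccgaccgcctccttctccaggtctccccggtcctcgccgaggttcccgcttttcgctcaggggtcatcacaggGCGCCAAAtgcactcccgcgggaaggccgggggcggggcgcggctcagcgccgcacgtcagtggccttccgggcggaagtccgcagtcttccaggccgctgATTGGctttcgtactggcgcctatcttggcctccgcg
Rrm1: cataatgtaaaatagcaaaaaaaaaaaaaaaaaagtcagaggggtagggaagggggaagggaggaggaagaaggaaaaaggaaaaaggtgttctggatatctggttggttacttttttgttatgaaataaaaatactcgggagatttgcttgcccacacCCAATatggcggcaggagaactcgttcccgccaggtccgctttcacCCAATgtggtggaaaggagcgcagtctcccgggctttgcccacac
Tyms: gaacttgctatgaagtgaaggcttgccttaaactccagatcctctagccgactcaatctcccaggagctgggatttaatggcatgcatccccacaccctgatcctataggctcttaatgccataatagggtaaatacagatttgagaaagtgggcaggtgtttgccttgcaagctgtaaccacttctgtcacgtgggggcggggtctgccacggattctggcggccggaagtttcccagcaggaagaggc

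In the Mcm6 promoter 3 E2F matches began 110, 106 and 47 bases before the start, the first 2 overlapping on opposite strands. Mcm5 held 2 overlapping matches, 153 and 149 bases before the start, and Pola1 held 1, at 138 bases. Rrm1 held no E2F match in this stretch but 2 CCAAT boxes, and Tyms held neither. Over windows of 300 bases, from 250 before the start to 50 after it, 46 of the 55 genes had a sequence. An E2F match was present in 17 of these 46, or 37.0%, against 704 of 27025 genes with a window, or 2.61%. Among genes called lower with doxorubicin the count was 14 of 36, among those called higher 0 of 3, and among those not called 3 of 7. Of the genes with a window that fell 2-fold or more, 5 of 11 held an E2F match, a share near that of genes not called. A CCAAT box was present in 26 of 46, or 56.5%, against 41.1% of all genes with a window. It was found in 23 of 36 genes called lower, 1 of 3 called higher and 2 of 7 not called. All 11 genes that fell 2-fold or more and had a window held it. The CHR letters TTTGAA, an element of many cell cycle promoters, were present in 8 of 46, or 17.4%, against 20.2%. Of the genes that fell 2-fold or more, 2 of 11 held them. These are matches of letters, counted without a test. A short window without a match does not speak to sites elsewhere.

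Doxorubicin lowered most of the measured genes. Of 55, 43 were called lower in DOX than in Con, 3 were called higher (Tyms, Rfc4 and Orc2) and 9 were not called, at a limma adjusted p under 0.05 over all 30050 genes. Among all genes, 7.53% were called lower and 8.06% higher, and with the arrays quantile normalized once more the counts over all genes moved from 2264 lower and 2423 higher to 1902 lower and 3069 higher. The replication genes gave 42 lower and 3 higher under that normalization. The median difference over the 55 genes was -0.45 on the log2 scale, against -0.01 over all genes. A fall of 2-fold or more was called for 14 of them, against 1.09% of all genes. In 47 of 55 every DOX array lay below every Con array, which held for 17.2% of all genes. In bulk RNA, fewer cells making a transcript and less of it per cell cannot be told apart.

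**Figure D1:**
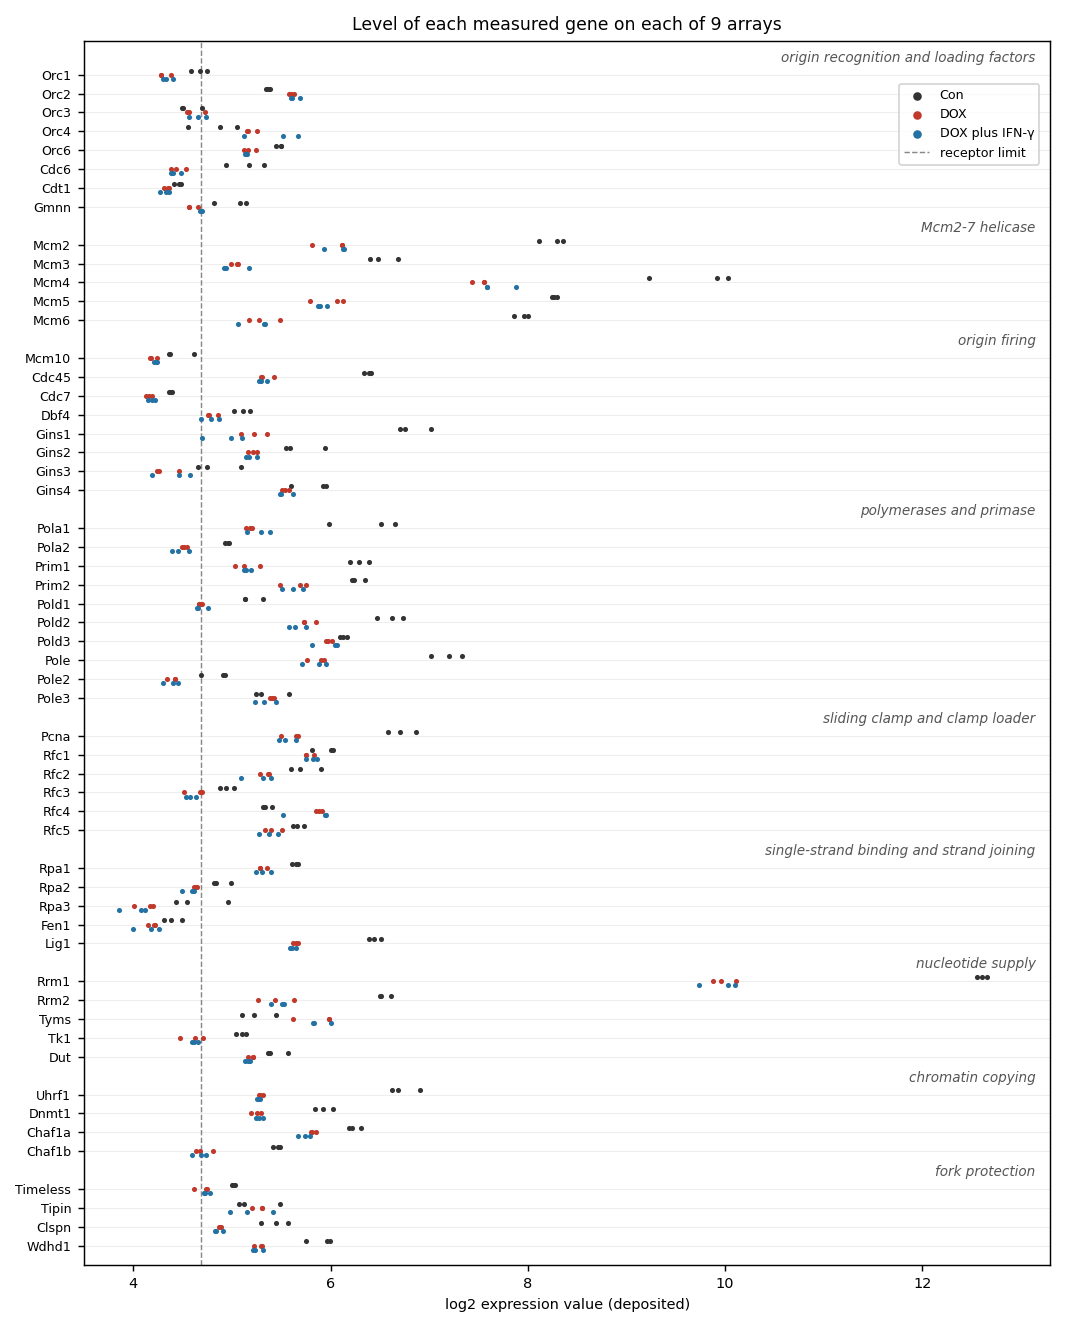
Deposited log2 expression value of each of the 55 measured genes on each of 9 arrays, 1 point per array, grouped by role, with Con in black, DOX in red and DOX plus IFN-γ in blue. The dashed line at 4.69 is the 95th percentile of 1749 olfactory, vomeronasal and taste receptor genes, and the Con points of Mcm2 to Mcm6 and Rrm1 lie far to the right of both treated groups, which lie close together.

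The depth of change varied widely. Of the 43 genes called lower, 5 fell by over 2 on the log2 scale (Mcm2, Mcm4, Mcm5, Mcm6 and Rrm1), 9 by between 1 and 2, 11 by between 0.5 and 1 and 18 by less than 0.5. A level was taken as detected when it exceeded 4.69, the 95th percentile of 1749 olfactory, vomeronasal and taste receptor genes. Group means above it numbered 48 of 55 in Con, 39 in DOX and 38 in DOX plus IFN-γ. The mean over all 9 arrays was at or below it for 11 genes, of which Cdc6, Pola2, Pole2 and Gins3 were above it in Con. The processing notes name RMA, which compresses differences of dim probes, so folds of such genes can be understated. Whether the values had also been rescaled, which bears on folds at any level, was not tested. Of 8 genes with a mean over all arrays at or above 6, 6 were called lower by 2-fold or more, with a median difference of -2.23. Of 47 genes under 6, 8 were, with a median of -0.41. Whether level accounts for differences in depth between roles was not tested.

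**Figure D2:**
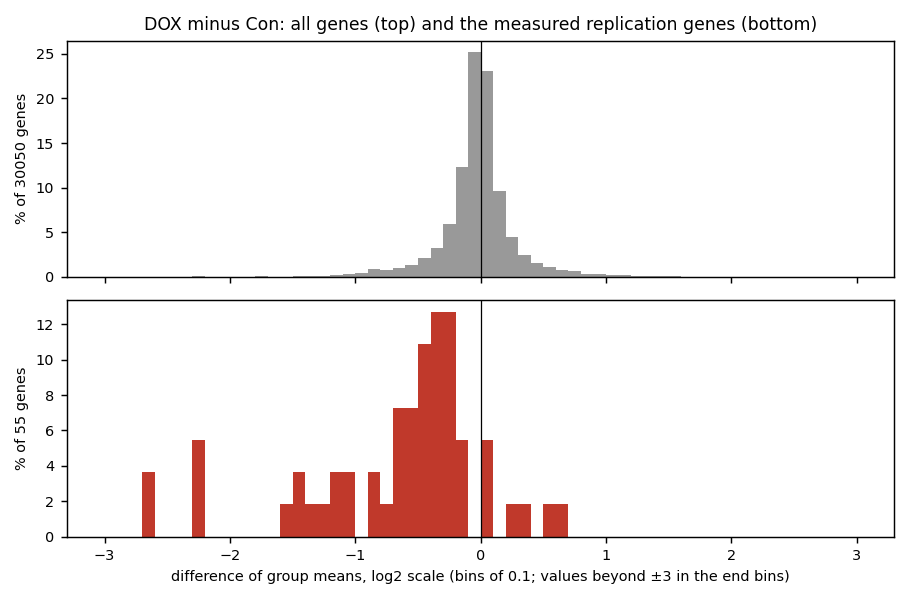
Histograms of the DOX minus Con difference of group means on the log2 scale, in bins of 0.1, as a percent of 30050 genes (top) and of the 55 measured replication genes (bottom). All genes centre near 0, with a median of -0.01, and the replication genes lie mostly to the left, with a median of -0.45 and a tail of 5 genes below -2.

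The Mcm2-7 helicase, the ring that unwinds DNA at the fork, fell as a whole as far as it was measured. All 5 measured subunits were called lower, each by 2-fold or more, and the median difference was -2.24. Mcm6 had log2 values of 8.01, 7.86 and 7.96 in Con, 5.28, 5.49 and 5.17 in DOX, and 5.06, 5.34 and 5.32 in DOX plus IFN-γ. The 6 treated arrays lay together and far below the Con arrays. Doxorubicin lowered Mcm6 by 6.18-fold, a difference of -2.63 (SE 0.10, adjusted p = 5.57e-06), to 16.2% of its Con level. Mcm5 gave 8.30, 8.25 and 8.26 in Con, 5.79, 6.07 and 6.13 in DOX, and 5.90, 5.87 and 5.96 with interferon gamma added. Its Con arrays were nearly equal, and the difference was -2.27 (SE 0.09, adjusted p = 5.57e-06).

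Mcm2 stood at 8.30, 8.12 and 8.36 in Con, at 6.12, 6.12 and 5.81 in DOX and at 5.94, 6.12 and 6.13 in DOX plus IFN-γ. This was a fall of 4.74-fold, with a difference of -2.24 (SE 0.11, adjusted p = 9.19e-06). In Mcm4 the Con arrays were less alike, at 10.03, 9.92 and 9.23, against 7.55, 7.44 and 7.55 in DOX and 7.59, 7.88 and 7.59 in DOX plus IFN-γ. Con replicate 3 was the low array of its group here, yet it remained well above every treated array, and the difference was -2.21 (SE 0.19, adjusted p = 0.000127). Mcm3 read 6.48, 6.40 and 6.68 in Con, 5.06, 5.06 and 4.99 in DOX and 4.92, 4.94 and 5.17 with interferon gamma. Its difference of -1.49 (SE 0.09, adjusted p = 2.50e-05) was the smallest of the 5 subunits.

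Genes that mark origins and load the helicase had smaller measured changes, but 4 of them were not above the detection limit, where falls can be understated. Of 8 measured, 4 were called lower (Cdc6, Gmnn, Orc1 and Orc6), 1 was called higher (Orc2) and 3 were not called, with a median of -0.21 and no called fall of 2-fold. Cdc6, the ATPase that helps load the helicase, had values of 4.94, 5.17 and 5.33 in Con, 4.38, 4.43 and 4.53 in DOX and 4.39, 4.40 and 4.48 in DOX plus IFN-γ. Both treated groups lay below every Con array and below the detection limit, and the difference was -0.70 (SE 0.10, adjusted p = 0.00144). Its partner Cdt1 was dim in every group and not called, at -0.11 (adjusted p = 0.181). Gmnn, or geminin, which holds Cdt1 in check after origins fire, fell by 0.42 (adjusted p = 0.0095), although with array set as a term, described below, its adjusted p was 0.0585.

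Subunits of the origin recognition complex did not move together. Orc1, the subunit that is made anew in each cycle, fell by 0.35 (adjusted p = 0.00419) and Orc6 by 0.31 (adjusted p = 0.00325). Orc2 went the other way, with 5.37, 5.39 and 5.35 in Con, 5.58, 5.63 and 5.60 in DOX and 5.69, 5.60 and 5.61 in DOX plus IFN-γ. All 6 treated arrays exceeded all 3 Con arrays by a small margin, a difference of 0.24 (SE 0.05, adjusted p = 0.00848). Orc4 had 5.05, 4.87 and 4.56 in Con, 5.16, 5.26 and 5.15 in DOX, and 5.67, 5.52 and 5.13 in DOX plus IFN-γ. Every DOX array was above every Con array, but the Con arrays were spread, and the difference of 0.36 (SE 0.16, adjusted p = 0.179) was not called. Orc3 read 4.70, 4.51 and 4.49 in Con, 4.56, 4.55 and 4.72 in DOX and 4.74, 4.65 and 4.57 in DOX plus IFN-γ. Its groups overlapped, with a difference of 0.05 (adjusted p = 0.796).

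Among the factors that switch the loaded helicase on, 7 of 8 were called lower and Gins4 was not called, with a median of -0.40. Gins1, a subunit of the GINS complex that locks Cdc45 to the helicase, had the largest fall: 7.02, 6.70 and 6.76 in Con against 5.36, 5.23 and 5.09 in DOX and 4.70, 5.10 and 4.99 in DOX plus IFN-γ. The difference was -1.60 (SE 0.13, adjusted p = 8.06e-05), to 33.0% of the Con level. The other GINS subunits moved less, Gins2 by -0.49 (adjusted p = 0.0111), Gins3 by -0.51 (adjusted p = 0.0384) and Gins4 by -0.28 (adjusted p = 0.0846). Cdc45 had tight groups, at 6.39, 6.41 and 6.34 in Con, 5.29, 5.42 and 5.30 in DOX and 5.28, 5.35 and 5.30 in DOX plus IFN-γ. It fell 2.05-fold, by 1.04 on the log2 scale (SE 0.05, adjusted p = 1.26e-05). Cdc7 and Dbf4, the kinase and its activator that trigger firing, were called with small differences of -0.22 and -0.31 (adjusted p = 0.0104 and 0.0145), as was Mcm10, at -0.26 (adjusted p = 0.0434). The means of Cdc7 and Mcm10 were below the detection limit in every group, and that of Gins3 in both treated groups, where falls can be understated.

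The polymerase and primase genes differed in the size of their measured falls. Of 10 genes, 8 were called lower and Pold3 and Pole3 were not called, with a median of -0.57. The catalytic subunits Pole, of the leading strand polymerase, and Pola1, of the polymerase that starts each strand, fell 2-fold or more, as did Prim1, the catalytic primase subunit that lays the RNA primer. Pole read 7.33, 7.20 and 7.02 in Con, 5.93, 5.91 and 5.76 in DOX and 5.71, 5.96 and 5.88 in DOX plus IFN-γ. The Con arrays stood clear of both treated groups, by a difference of -1.32 (SE 0.10, adjusted p = 5.46e-05). Pola1 had 6.66, 6.52 and 5.99 in Con, 5.14, 5.18 and 5.21 in DOX and 5.39, 5.29 and 5.15 in DOX plus IFN-γ. Con replicate 3 was again the low Con array, and the difference was -1.21 (SE 0.15, adjusted p = 0.000982).

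Prim1 fell by 1.15 (adjusted p = 3.33e-05), and Prim2, the primase subunit without catalytic activity, by 0.63 (adjusted p = 0.00139). Among the subunits of the lagging strand polymerase, Pold2 fell by 0.84 and the catalytic Pold1 by 0.52 (adjusted p = 0.000214 and 0.000803), and Pold3 differed by -0.15 (adjusted p = 0.226). Accessory subunits Pola2 and Pole2 fell by 0.44 and 0.45 (adjusted p = 0.000799 and 0.00413). The Con means of Pola2, Pole2 and Pold1 were 4.95, 4.84 and 5.19. Their DOX means, 4.52, 4.39 and 4.68, were below the detection limit, where falls can be understated. Pole3, a histone-fold subunit that also serves in a chromatin remodelling complex, had 5.29, 5.24 and 5.58 in Con, 5.43, 5.41 and 5.39 in DOX and 5.33, 5.23 and 5.45 in DOX plus IFN-γ. Its groups overlapped, with a difference of 0.04 (95% interval -0.18 to 0.25).

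Of the sliding clamp Pcna and the 5 subunits of its loader, 4 were called lower, Rfc4 was called higher and Rfc1 was not called, with a median of -0.29. Pcna, the ring that keeps polymerases on DNA, had 6.71, 6.87 and 6.58 in Con, 5.50, 5.65 and 5.67 in DOX and 5.54, 5.65 and 5.47 in DOX plus IFN-γ. The Con arrays were all above both treated groups, and the difference was -1.11 (SE 0.09, adjusted p = 7.33e-05). The array also names the pseudogenes Pcna-ps2, at -2.89 (adjusted p = 5.57e-06), and Pcna-ps1, at -0.25 (adjusted p = 0.0795), so probes of near-identical copies may share signal and the size for Pcna is uncertain.

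Rfc4 rose while other loader subunits fell. Its values were 5.33, 5.41 and 5.31 in Con, 5.89, 5.92 and 5.85 in DOX and 5.52, 5.95 and 5.96 in DOX plus IFN-γ. All treated arrays exceeded the Con arrays, DOX plus IFN-γ replicate 1 by the least, and the DOX difference was 0.54 (SE 0.11, adjusted p = 0.0117). Rfc2, Rfc3 and Rfc5 fell by 0.39, 0.32 and 0.26 (adjusted p = 0.031, 0.011 and 0.0384), and the large subunit Rfc1 differed by -0.17 (adjusted p = 0.14).

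Single-strand binding and strand joining genes fell by moderate amounts, with 4 of 5 called lower and a median of -0.33. Lig1, the ligase that seals Okazaki fragments, had the largest difference. Its values were 6.44, 6.39 and 6.51 in Con, 5.65, 5.67 and 5.62 in DOX and 5.59, 5.61 and 5.65 in DOX plus IFN-γ. The Con arrays and the treated arrays formed compact groups far apart, with a difference of -0.80 (SE 0.05, adjusted p = 2.60e-05). The single-strand binding subunits Rpa1, Rpa2 and Rpa3 fell by 0.33, 0.25 and 0.52 (adjusted p = 0.00337, 0.0238 and 0.033). Rpa3 was below the detection limit in every group, with means of 4.65 in Con, 4.12 in DOX and 4.02 in DOX plus IFN-γ. Fen1, the nuclease that trims flaps between Okazaki fragments, was also dim in all groups and was not called, at -0.20 (adjusted p = 0.125).

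Nucleotide supply held both the second largest fall and the largest called rise of all 55 genes. Rrm1, the large subunit of ribonucleotide reductase, read 12.60, 12.66 and 12.56 in Con, 9.96, 10.11 and 9.88 in DOX and 9.73, 10.03 and 10.10 in DOX plus IFN-γ. It fell 6.15-fold, with a difference of -2.62 (SE 0.10, adjusted p = 5.57e-06). Rrm2, the small subunit made in S phase, had 6.51, 6.50 and 6.62 in Con, 5.43, 5.63 and 5.27 in DOX and 5.40, 5.51 and 5.52 in DOX plus IFN-γ. No treated array reached the Con range, and the difference was -1.10 (SE 0.09, adjusted p = 0.000104).

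Tyms, the thymidylate synthase that makes the thymine nucleotide, had values of 5.22, 5.45 and 5.10 in Con, 5.99, 5.98 and 5.62 in DOX and 5.83, 6.01 and 5.84 in DOX plus IFN-γ. Each treated array was above each Con array, a rise of 0.61 (SE 0.12, adjusted p = 0.0106) that had an adjusted p of 0.0518 with array set as a term. The pseudogene symbol Tyms-ps rose by 0.98 (adjusted p = 0.0155), from 6.53 to 7.51, so the signal of Tyms may be shared with its copy and is uncertain. Tk1, the thymidine salvage kinase of S phase, fell by 0.49 (adjusted p = 0.00122), and Dut, which removes dUTP, by 0.25 (adjusted p = 0.0278).

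All 4 genes that restore chromatin and its methylation behind the fork fell, with a median of -0.72. Uhrf1, which reads half-methylated DNA and recruits Dnmt1, had 6.62, 6.90 and 6.68 in Con, 5.29, 5.32 and 5.27 in DOX and 5.29, 5.28 and 5.25 in DOX plus IFN-γ. The treated arrays were almost level, 2.72-fold below Con in DOX, with a difference of -1.44 (SE 0.07, adjusted p = 1.16e-05). Dnmt1, the maintenance methyltransferase, fell by 0.68 (adjusted p = 0.000123). The histone chaperone subunits Chaf1b and Chaf1a fell by 0.75 and 0.41 (adjusted p = 9.50e-05 and 0.00119).

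Of 4 fork protection genes, 3 were called lower and Tipin was not, with a median of -0.44. Wdhd1, an adaptor between helicase and polymerase, had 5.96, 5.99 and 5.75 in Con, 5.23, 5.29 and 5.30 in DOX and 5.21, 5.32 and 5.24 in DOX plus IFN-γ. Its treated groups overlapped each other and neither overlapped Con, with a difference of -0.63 (SE 0.07, adjusted p = 0.000552). Clspn, or claspin, which carries the checkpoint signal from stalled forks, fell by 0.56 (adjusted p = 0.000857). Timeless and Tipin form a pair in cells, but Timeless fell by 0.32 (adjusted p = 0.00365) and Tipin differed by 0.04 (95% interval -0.27 to 0.35). The Tipin values were 5.49, 5.07 and 5.12 in Con, 5.30, 5.20 and 5.30 in DOX and 5.42, 5.15 and 4.98 in DOX plus IFN-γ, with overlap between all groups.

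**Figure D3:**
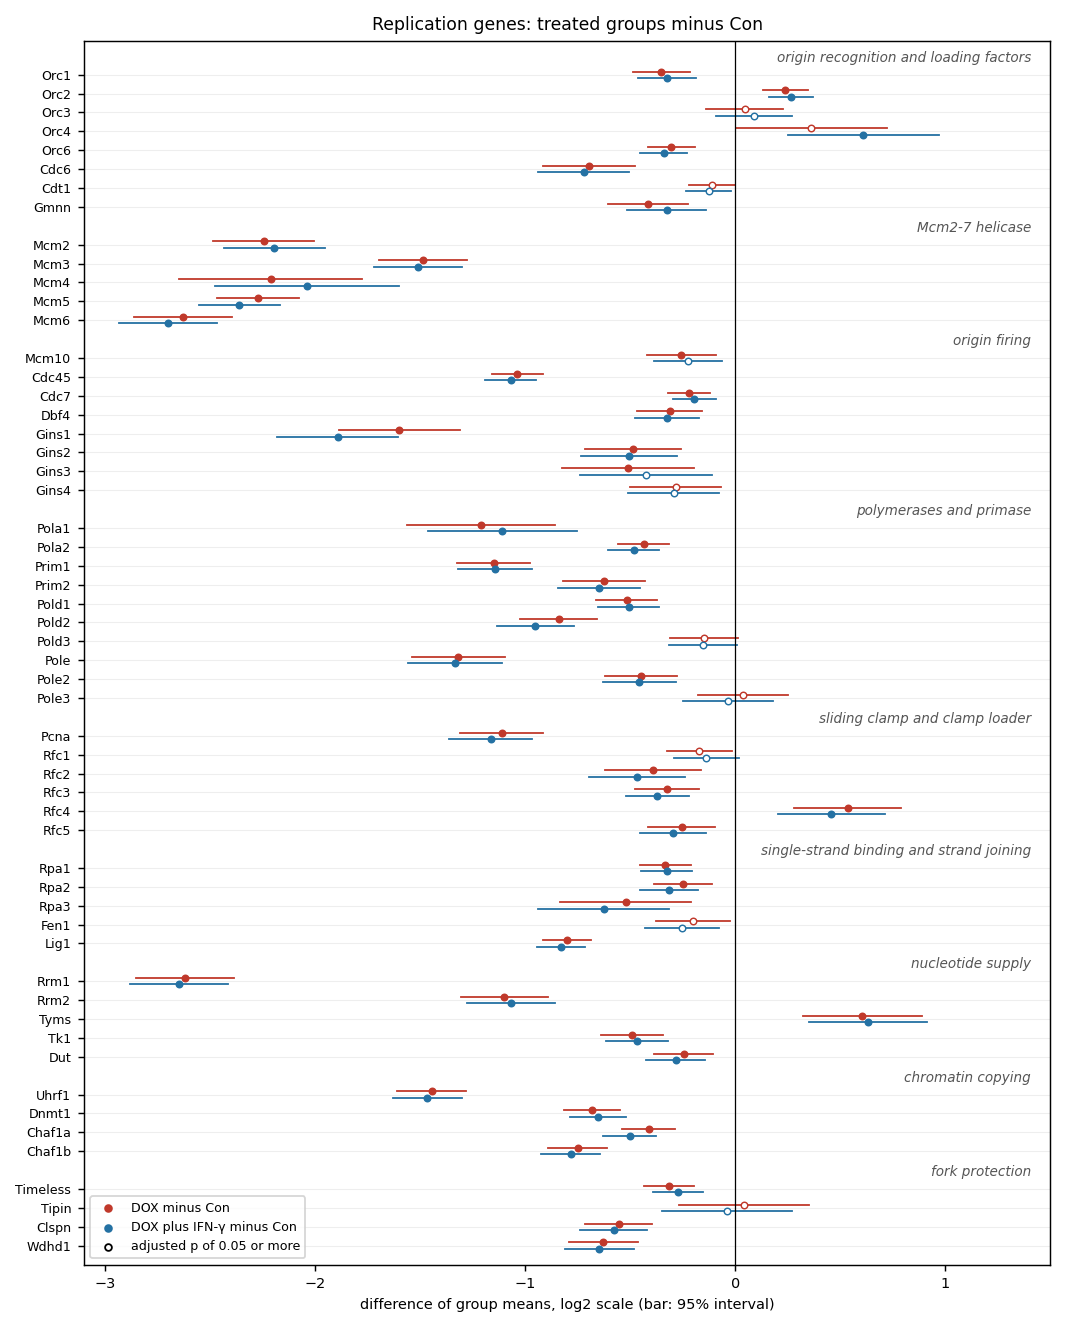
Difference of group means from Con on the log2 scale for each of the 55 measured genes, with 95% intervals, DOX in red and DOX plus IFN-γ in blue. Filled points have an adjusted p under 0.05. The red and blue points of a gene lie close together, share the Con arrays, and reach furthest left for Mcm6 and Rrm1, at -2.63 and -2.62 for DOX.

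Cells given doxorubicin with interferon gamma were also compared with Con. Of the 55 genes, 41 were called lower, against 9.41% of all genes, 4 higher, against 8.01%, and 10 were not called. A fall of 2-fold or more was called for 14, against 1.46% of all genes, and the median difference was -0.47. Over all genes 2827 were called lower and 2407 higher, which became 2273 and 3075 with a further quantile normalization, while the replication genes gave 40 lower and 4 higher. Mcm6 had the largest fall here too, with a difference of -2.70 (adjusted p = 5.74e-06), followed by Rrm1 at -2.65 (adjusted p = 5.74e-06), Mcm5 at -2.36, Mcm2 at -2.19, Mcm4 at -2.04 and Gins1 at -1.89 (adjusted p = 3.48e-05). The genes called higher were Tyms at 0.63 (adjusted p = 0.0081), Orc4 at 0.61 (adjusted p = 0.0294), Rfc4 at 0.46 (adjusted p = 0.0229) and Orc2 at 0.27 (adjusted p = 0.0046). This comparison uses the same Con arrays as DOX against Con, so the resemblance of both sets of values is not independent evidence.

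No replication gene was called between DOX plus IFN-γ and DOX. By limma 0 of 55 passed, with a smallest adjusted p of 0.976, and 1 had an unadjusted p under 0.05, against 0% and 5% of all genes. That gene was Gins1, lower by 0.29 with interferon gamma added (95% interval -0.58 to -0.01, unadjusted p = 0.0467, adjusted p = 0.976). Differences ran from -0.29 for Gins1 to 0.25 for Orc4 and were under 0.1 in size for 49 of 55. The 95% interval lay within 0.5 of 0 for 52 genes. The intervals of Orc4 and Mcm4, with upper bounds of 0.61 each, and of Gins1, with a lower bound of -0.58, reached further from 0. For Mcm6 the interval ran from -0.31 to 0.16 and for Rrm1 from -0.26 to 0.20. Differences of any size within these intervals are compatible with the data, so the missed threshold does not show that the groups were alike.

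**Figure D4:**
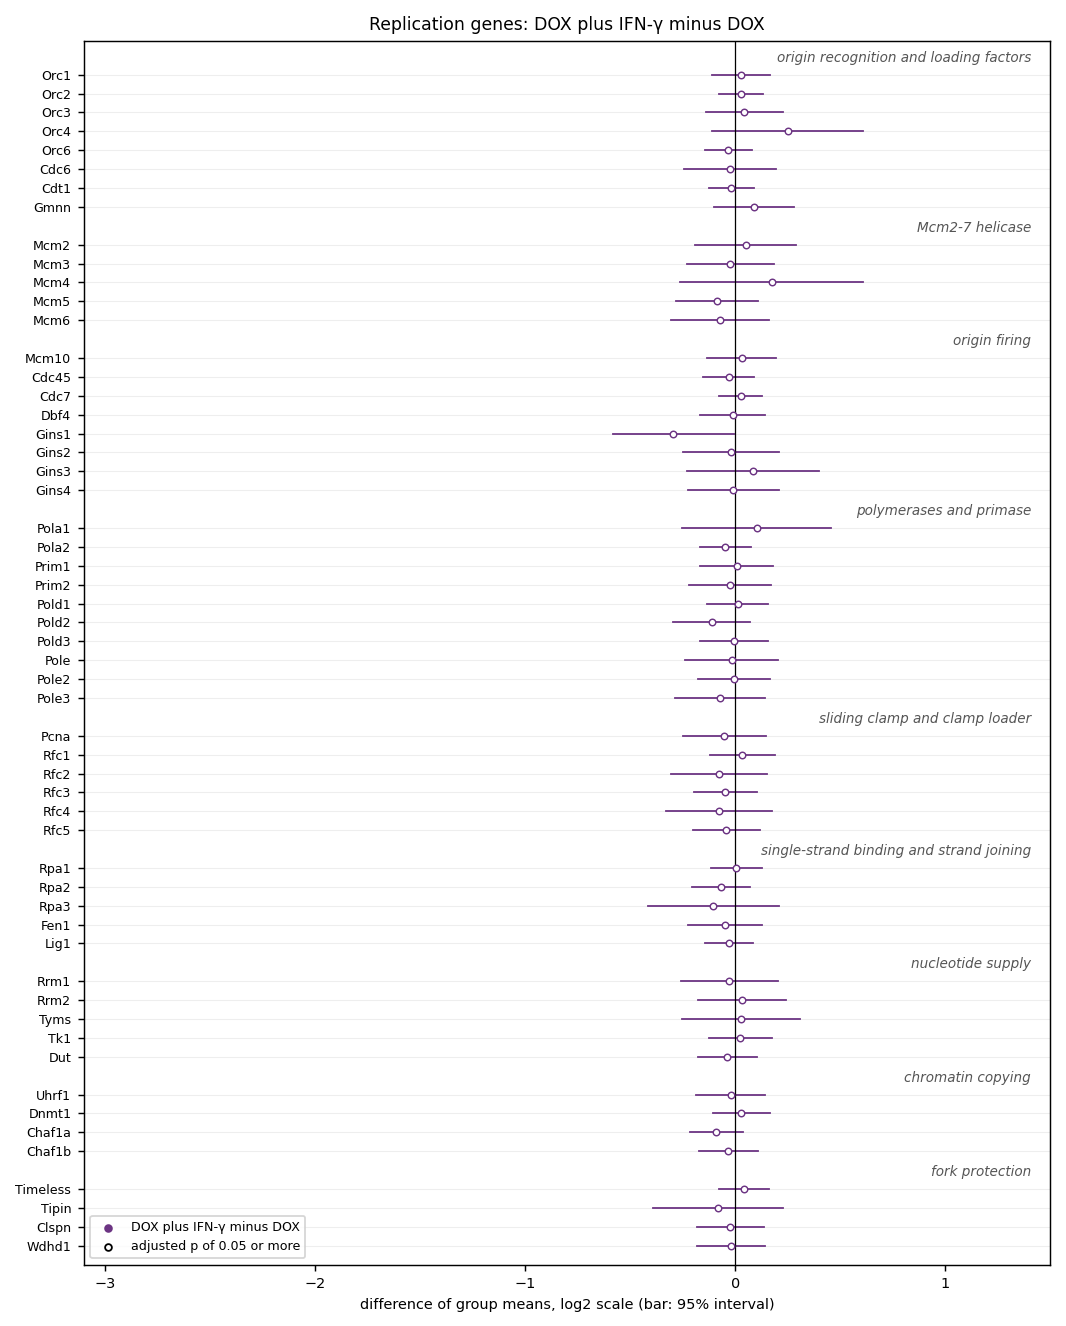
Difference of group means, DOX plus IFN-γ minus DOX, on the log2 scale for each of the 55 measured genes, with 95% intervals, on the same axis range as the comparison with Con. All points are open because none had an adjusted p under 0.05, and they lie between -0.29 for Gins1 and 0.25 for Orc4.

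Other genes of DNA replication, from a list of 50 of which 48 were measured, were mostly lower or not called in DOX against Con. Of the 48, 26 were called lower, against 7.53% of all genes, 4 higher, a share near the 8.06% of all genes, and 18 were not called, with a median of -0.32. Ccne1, the cyclin that starts S phase, fell by 2.20 (adjusted p = 5.57e-06), and its kinase Cdk2 by 1.45 (adjusted p = 2.80e-05). Histone chaperones Nasp and Asf1b fell by 1.16 and 1.15 (adjusted p = 0.000139 and 0.000148), whereas the histone chaperone Asf1a rose by 0.50 (adjusted p = 0.00716). Also among the 4 called higher was Polh, the polymerase that copies past damaged bases, which rose by 2.13 (adjusted p = 3.78e-05), from a mean of 5.75 to 7.88.

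Among other enzymes of nucleotide supply, 31 of 35 listed were measured, 8 were called lower, 4 higher and 19 were not called, against 7.53% lower and 8.06% higher among all genes, with a median of -0.05. The median was near that of all genes, -0.01. Cad, which starts pyrimidine synthesis, fell by 1.15 (adjusted p = 5.32e-05), Prps1, which makes the sugar phosphate for all nucleotides, by 1.00 (adjusted p = 7.06e-05), and the folate enzyme Mthfd1 by 0.60 (adjusted p = 0.00269). The mitochondrial folate enzyme Shmt2 rose by 1.21 (adjusted p = 0.000709) and the mitochondrial thymidine kinase Tk2 by 0.49 (adjusted p = 0.0272). Rrm2b, the reductase subunit used outside S phase and a p53 target, rose by 0.23 (adjusted p = 0.0314), from 5.01 to 5.25, in contrast to Rrm1 and Rrm2.

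Some properties of the arrays and cells bear on these values. Array medians lay between 4.08 and 4.17, and the mean over the 55 genes was 5.89 to 5.90 on the Con arrays, 5.22 to 5.27 on the DOX arrays and 5.20 to 5.25 on the DOX plus IFN-γ arrays. Over all genes, Con replicate 3 scored -23.5 on the second principal component, which held 14.2% of the variance, against 11.3 and 21.1 for the other Con arrays. It was the lowest Con array in 19 and the highest in 24 of the 55 genes. Of 19 cardiomyocyte markers measured, 5 were above the detection limit (Tnnt2, Nkx2-5, Gja5, Hand2 and Mef2c) and defining ones such as Myh6 and Nppa were not. Of 15 skeletal muscle markers 9 were above it, Myog and Myod1 included, and of 12 fibroblast and matrix markers 8. Endothelial markers numbered 0 of 8 above it and immune markers 1 of 9. Most of the listed cardiomyocyte markers thus did not bear out the heart muscle label, and the identity of the cells was not tested. Averaged over each list, the cardiomyocyte marker level was 4.67 to 4.71 in Con and 4.50 to 4.57 in DOX, the skeletal muscle level 5.46 to 5.55 and 5.14 to 5.21, and the fibroblast level 8.58 to 8.81 and 8.34 to 8.38. Myog differed by -3.42 (adjusted p = 5.57e-06), a larger fall than that of any replication gene, while 4 of 15 skeletal muscle markers were called higher, 5 lower, and the median was -0.06. Tnnt2 and Gja5 differed by -1.24 and -1.25 (adjusted p = 5.32e-05 and 0.000538), and the cardiomyocyte median was -0.02. Proliferation markers fell beside the replication genes, with 4 of 5 called lower and a mean of 5.41 to 5.78 in Con and 4.76 to 4.83 in DOX, and the part of these shifts in the results was not tested.

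A set of 6 arrays, Con replicate 1, all DOX arrays and DOX plus IFN-γ replicates 1 and 2, reached the same highest value of 19.93 and shared 82 to 186 exactly identical values per pair, against 1 to 17 for other pairs. With this array set as a term in the fit, 35 replication genes were lower and 2 higher in DOX than in Con. All DOX arrays but only replicate 1 of Con are in the set, so the term overlaps with treatment and cannot be well separated from it. The calls that ended were those of Gmnn, Mcm10, Gins2, Gins3, Rfc2, Rfc5, Rpa2, Dut and Tyms. The largest of these differences was that of Tyms, at 0.61. For DOX plus IFN-γ against Con the counts remained 41 lower and 4 higher.

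Single arrays decided some of the smaller calls. Of the 46 calls in DOX against Con, 38 held whichever array was left out, and the number of genes called lower ran from 35 to 42. Mcm10 was lost without Con replicate 3 or any 1 treated array (adjusted p up to 0.127), and Dbf4 without DOX replicate 1 or 3 (up to 0.06). Gins3 needed Con replicates 1 and 2, DOX replicates 1 and 2 and DOX plus IFN-γ replicate 1 (up to 0.123). Rfc2 was lost without Con replicate 2 or 3 or any DOX array (up to 0.0972), and Rfc5 without any Con array, DOX replicate 1 or 3 or DOX plus IFN-γ replicate 2 (up to 0.136). Rpa2 and Rpa3 were lost without Con replicate 2 or any DOX array (up to 0.0834 and 0.111), and Dut without any DOX array (up to 0.0847). Conversely, Gins4 was called lower without Con replicate 1 and Rfc1 without Con replicate 3.

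In DOX plus IFN-γ against Con, 38 of 45 calls held whichever array was left out. Orc4 was lost without Con replicate 2 or 3, DOX replicate 1 or DOX plus IFN-γ replicate 1 or 2 (adjusted p up to 0.0946). Gmnn was lost without Con replicate 2 or 3 or any DOX plus IFN-γ array (up to 0.0852), and Rfc4 without any Con array or DOX plus IFN-γ replicate 2 or 3 (up to 0.0823). Cdc7 needed Con replicates 1 and 2 and DOX plus IFN-γ replicates 1 and 3 (up to 0.0598). Rfc5 needed Con replicate 2 and DOX plus IFN-γ replicates 1 and 2 (up to 0.0675). Rpa3 and Dut were lost without DOX plus IFN-γ replicate 2 (0.0543 and 0.0535), and Fen1 was called lower without DOX plus IFN-γ replicate 3. None of the genes that fell 2-fold or more lost its call in either comparison without any 1 array.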

How the data were processed

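RNA of the 9 samples had been measured on Affymetrix mouse transcript arrays. The values deposited are log2 expression in 1 table, made with RMA (background correction, normalization and probe summary) per the submitters' processing notes, in a version not given in the sources used here. That the scale is log2 was read from the range, 2.29 to 19.93. Over all arrays 324 values lay at or above 19.9, and whether values had been capped or rescaled was not tested. Of 65527 clusters, 32493 were in the platform annotation, 30376 with 1 symbol and 2117 with several. Where a gene had more than 1 cluster (245 of 30050 genes), that with the highest mean stood for it. Group means were fitted with limma 3.58.1 (lmFit and eBayes, R 4.3.3) on all 9 arrays, with 6 residual and 2.41 prior degrees of freedom. Tests were two-sided, with Benjamini-Hochberg adjustment over 30050 genes, no filter on dim genes and called at an adjusted p under 0.05. The number of arrays limits the precision, with a median 95% interval of ±0.17 for DOX minus Con of the 55 genes. The fit was tested on simulated data. Promoters came from RefSeq. Members and lists were chosen with earlier results of these data known. By rule, values on every array went to the largest changes of each role and to members that moved against it. Values are also given for other members that the text turns on. Alternatives were a quantile normalization, a filter on dim genes, a fit of only 2 groups, the replicate number or the array set as a term, the mean of a gene's clusters, trend and robust variance, and each array left out.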

Additional observations from a re-analysis of the deposited data

How the results depend on the processing

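Of the calls in DOX against Con, 35 of 46 held under every alternative that tested them, and in DOX plus IFN-γ against Con 38 of 45 did. With the replicate block the genes called lower numbered 40 and 42 in these comparisons. Deviations of arrays with the same number correlated at -0.16 to 0.36 and 4 of 9 arrays correlated best with their own number, so the numbers were not taken as pairs. Fitting only the groups compared left 38 and 39 lower and, in DOX plus IFN-γ against Con, 2 higher, a count that ran from 2 to 4 with single arrays left out. The median of DOX minus Con moved to -0.504 over the 44 genes above the detection limit. Uncalled differences near 0 changed sign with the array set as a term: in DOX minus Con, Orc3 to -0.0641 and Tipin to -0.191, and in DOX plus IFN-γ minus Con, Pole3 to 0.0131. Leaving out single arrays, the DOX minus Con difference ran from -0.0280 to 0.141 for Pole3, -0.0351 to 0.174 for Tipin and -0.0108 to 0.111 for Orc3, and that of DOX plus IFN-γ minus Con from -0.160 to 0.0902 for Tipin and -0.0996 to 0.0692 for Pole3. The causes were not tested. Between DOX plus IFN-γ and DOX, 0 of the 55 genes were called by limma in any alternative, with 1 at an unadjusted p under 0.05 in the fit reported. Dim probes limit what can be seen of the 11 genes whose mean over all arrays was at or below the detection limit, although Cdc6, Pola2, Pole2 and Gins3 among them were above it in Con.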
